A study of Homo sapiens with 8 samples.

Results

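HL60 is a human acute myeloid leukaemia line, and its response to cinobufagin was followed here across the transcriptome. Cinobufagin is a bufadienolide of toad venom that binds and inhibits the Na+/K+-ATPase, the pump that keeps sodium low and potassium high inside the cell. The comparison held 2 untreated HL60 libraries (0 nM) and 2 libraries from HL60 cells given 100 nM cinobufagin for 24 h, numbered 1 and 2 in the labels. All 4 came from the same medium, RPMI-1640 with 10% fetal bovine serum. Libraries of Kasumi-1, a second myeloid leukaemia line kept in 20% serum, served as the comparison at the end, in the same layout of 2 untreated and 2 treated. Nothing in the labels says that libraries of 1 group come from different cultures, so a p-value here reflects the spread of these libraries alone, part or all of which may be technical.

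A gene was included where its FPKM (fragments per kilobase of transcript scaled to the mapped fragments of the library) was at least 1 in at least 2 of the 4 HL60 libraries. Rows of short RNAs, and symbols listed on several rows, were not included. This kept 11084 of the 25593 rows of the deposited table. Of these, 419 were below 1 FPKM in both untreated libraries and 612 in both treated ones. Such genes entered only through the group in which they were higher, so lists with at least 3 members that were low in both untreated libraries are given with and without such genes, the others being called expressed in both states. Changes are log2 differences of FPKM + 1, treated minus untreated, and understate the change of low genes. A gene is said to have risen or fallen where the limma p-value, adjusted by Benjamini-Hochberg over the 11084 genes, was below 0.05. Because FPKM is relative to the whole library, a change in total RNA per cell is not visible. In bulk RNA, fewer cells of a kind and less RNA per cell cannot be told apart.

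HL60 cells resemble cells blocked at the promyelocyte stage, when primary (azurophil) granules are made. Normal cells then move on to specific granules, surface receptors and the oxidase of neutrophils and monocytes, while ribosome production and division decline. NF-kB and AP-1 are transcription factors that switch on chemokine and cytokine genes after danger signals, and their own inhibitors are among the genes they switch on. MYC drives ribosome production, nucleotide synthesis and other growth metabolism, and the series title names its pathway.

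The libraries matched their labels and, in the tested genes, each other. Summed FPKM over all rows was higher in replicate 2, at 732706 and 1445580 in the untreated libraries and 594943 and 1187890 in the treated ones. Over the tested genes it was 617924 and 587242 untreated, and 532915 and 526694 treated. Of the 25593 rows of the deposited table, between 10623 and 10871 reached 1 FPKM in each library, and relative depth lay between 0.957 and 1.04. Across genes, which are not independent replicates, the 2 untreated libraries correlated with r = 0.996 (Pearson), as did the 2 treated ones, and the changes of replicate 1 and replicate 2 with r = 0.985. RUNX1T1 and CD34, which mark Kasumi-1, were listed at 0 in all 4 libraries. Of markers of other cells, 1 of 18 erythroid and megakaryocyte genes, 2 of 18 T and NK cell genes, 2 of 12 B cell genes and 0 of 17 fibroblast, endothelial and epithelial genes passed the filter. The globin, CD3 and collagen genes of these lists were all among those that did not. The B cell list went from a summed 129 and 109 FPKM to 1.12 and 0.858, nearly all of it IGLL1. The T and NK list had a summed 105 and 109 FPKM before and 116 and 109 after, almost all of it CD4, also a monocyte gene, which fell from 79.0 and 82.4 to 16.8 and 19.0, and NKG7, which rose from 25.2 and 26.3 to 97.7 and 88.4. Their part in the changes below was not tested.

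Most of the measured transcriptome moved. In all, 4433 genes rose (40% of those tested) and 4477 fell (40.4%), so 80.4% were called. The counts of each gene list below are to be read against these shares. Changes of at least 2-fold were less common, with 1432 rises (12.9%) and 1728 falls (15.6%). The median change of all genes was −0.00, its quartiles were −0.65 and 0.61, and 2421 of the called genes moved by less than 0.5. At the far end, 99 genes rose and 68 fell by at least 3 on the log2 scale. Both treated libraries lay above both untreated ones in 5015 genes (45.2%) and below them in 5041 (45.5%).

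**Figure D1:**
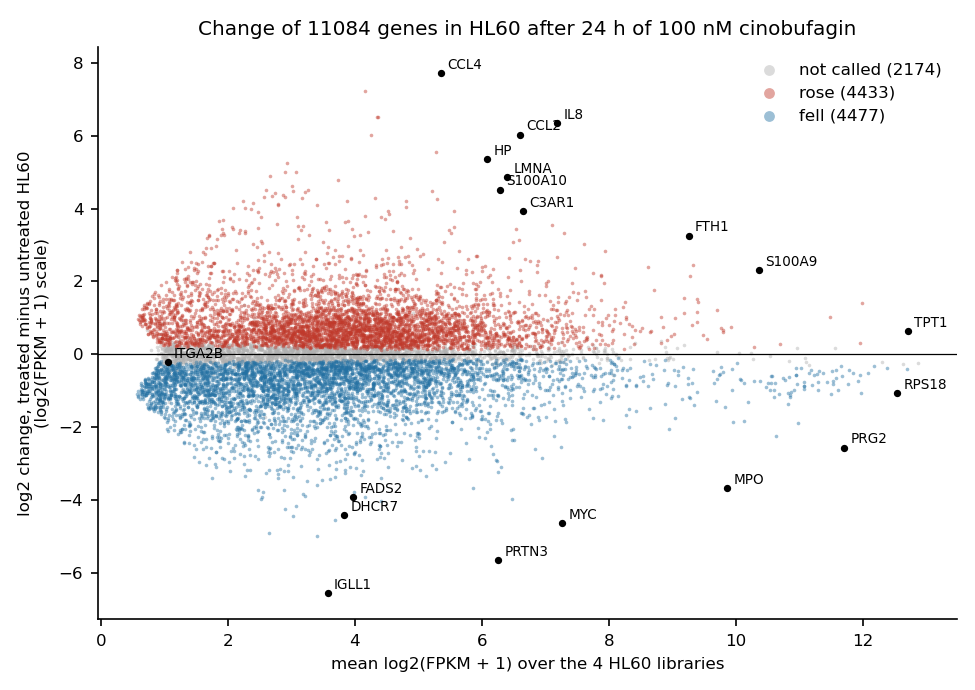
Change of each of the 11084 genes (y axis, log2(FPKM + 1), treated minus untreated HL60) against its mean level over the 4 HL60 libraries (x axis), with genes that rose in red, genes that fell in blue and the 2174 others in grey. Genes below 5 FPKM fell more often than they rose (1437 against 936), genes between 20 and 100 FPKM rose more often (1450 against 1093), and at the highest levels ribosomal protein genes such as RPS18 lie below 0 (fewer of them after quantile normalization). CCL4 and IGLL1 are the outermost labelled genes.

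The order of the most abundant genes changed. Of the 95 genes with a mean over 1000 FPKM, 73 fell and 9 rose (median −0.65), and of the 606 between 100 and 1000 FPKM 266 rose and 236 fell (median 0.07). The first of these counts depends on the scaling, since after quantile normalization 38 of the 95 fell and 25 rose (median −0.09). Of 84 cytosolic ribosomal protein symbols 74 fell and 0 rose (median −0.63), and after quantile normalization 44 fell and 12 rose (median −0.22). Cytosolic ribosomal protein symbols took 39.7% and 38.0% of the summed FPKM in the untreated libraries and 28.1% and 28.0% in the treated ones. PRG2, the major basic protein of eosinophil granules, was the third most abundant gene before treatment, at 8599.7 and 7663 FPKM, and stood at 1229.8 and 1523 FPKM after it, in rank 59 (−2.57, SE 0.17). TMSB4X, which encodes the actin-binding peptide thymosin beta 4, moved from rank 53 to rank 3, from 2572 and 2418 to 6739 and 6439 FPKM (1.40, SE 0.11). S100A9, a calcium-binding protein of neutrophils and monocytes, moved from rank 132 to rank 18, and B2M, the light chain of class I HLA molecules, from rank 69 to rank 11. TPT1, translationally controlled tumour protein, became the most abundant gene, with 5567 and 5231 FPKM before and 8517 and 8127 after. In each of these genes the treated pair lay wholly outside the untreated pair.

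A small set went from silent to expressed or the reverse. Below 1 FPKM in both untreated libraries and at least 10 FPKM in both treated ones were 36 genes, and 16 went from at least 10 to below 1. The gained genes included the prostaglandin synthase PTGS2, at 0.143 and 0.316 FPKM before and 10.4 and 11.4 after. They also included tissue factor, F3, which starts coagulation, at 0.510 and 0.839 and then 28.6 and 27.1 FPKM. The interferon-induced GTPase GBP2 stood at 0.502 and 0.477 FPKM before and 47.9 and 45.4 after, and the membrane protein EMP1 at 0.279 and 0.188 and 45.7 and 46.9. Osteopontin, SPP1, a secreted matrix protein of macrophages, had 0.670 and 0.651 FPKM untreated and 29.2 and 26.7 treated. Their separation follows from how they were chosen.

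Among the lost genes were KCNH2, which encodes a potassium channel, from 20.8 and 22.6 to 0.404 and 0.472 FPKM, and the semaphorin receptor PLXND1, from 31.5 and 31.5 to 0.731 and 0.687. NTHL1, a DNA glycosylase of base excision repair, went from 22.9 and 20.1 to 0.407 and 0.560 FPKM. The mitochondrial enzyme ALDH1B1 went from 14.0 and 14.8 to 0.579 and 0.436 and the sialyltransferase ST6GAL1 from 11.4 and 11.7 to 0.808 and 0.828. IGLL1 and CD79A, the 2 genes of the B cell list that passed, both ended below 1 FPKM.

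Secreted signals came first by size. Of 32 chemokine genes 15 were tested, of which 14 rose and 1 fell, with a median change of 4.35. Of the 7 that were expressed in an untreated library, 6 rose. The remaining 17 did not pass the filter, among them CXCL1, listed at 0 in all 4 libraries, so the rise covered part of the family. IL8, the neutrophil attractant CXCL8, had 15.9 and 14.4 FPKM in the untreated libraries and 1330.2 and 1295 in the treated ones (6.35, SE 0.11, limma adjusted p = 4.12e-09). CCL2, which draws monocytes, stood at 10.6 and 11.4 and 846 and 730.3 FPKM (6.03, SE 0.10), and CCL5, which draws T cells, at 4.40 and 5.12 and 79.3 and 76.4 (3.78). CCL3, CCL4 and their near-identical copies CCL3L1, CCL3L3, CCL4L1 and CCL4L2 rose by 4.35 to 7.73, and since the copies share reads their separate values are uncertain. The counts and median of the list include these copies, and the median is the value of CCL3L3. The chemokines' share of summed FPKM went from 0.00669% and 0.0068% to 0.677% and 0.637%. The groups of libraries were far apart for each of these genes, and CCL23 was the one chemokine that fell (−0.29), a call lost with a pseudocount of 0.1 (adjusted p = 0.0691) and under quantile normalization (adjusted p = 0.155).

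Cytokines moved in both directions. Of 26 tested cytokines and growth factors 16 rose and 6 fell (median 1.27), and of the 15 expressed in both states 8 rose and 3 fell. Tumour necrosis factor, TNF, stood at 6.72 and 6.98 FPKM before and 177 and 169 after (4.47, SE 0.15, limma adjusted p = 5.64e-08). IL1B, the pyrogenic interleukin, went from 2.12 and 2.10 to 30.8 and 27.9 FPKM, and its natural antagonist IL1RN from 0.654 and 0.565 to 32.7 and 32.0. Lymphotoxin beta (LTB, 2.68), the angiogenic factor VEGFA (2.32) and the EGF-receptor ligands AREG (2.42) and HBEGF (2.18) rose too. In the other direction moved TNFSF13B, the B cell survival factor BAFF (−2.66), IL18 (−1.67), IL16 (−1.70) and MIF (−1.74). IL6 and IL10 were listed at 0 in all 4 libraries.

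Of 32 tested receptors for these signals 26 rose and 4 fell (median 1.07), and 19 of the 24 expressed in both states rose (median 0.90). All 3 tested chains of interleukin-1 binding were among the largest rises. IL1R1, the signalling receptor, went from 0.320 and 0.277 to 19.9 and 19.1 FPKM, its partner IL1RAP from 6.34 and 6.63 to 75 and 80.8, and the decoy IL1R2 from 0.511 and 0.542 to 15.2 and 13.5. The receptors that fell were FLT3 (−1.93) and CSF3R (−1.58), for growth factors of progenitors and granulocytes, the IL8 receptor CXCR2 (−1.75) and IL27RA (−0.33). Of receptors that couple to G proteins, the complement receptors C3AR1 (25 and 24.2 to 398 and 387 FPKM, 3.94) and C5AR1 (1.02 and 1.07 to 36.4 and 41.4, 4.29) rose together. HCAR2 and HCAR3, receptors for small metabolites such as nicotinic acid, rose by 4.5 and 5.01, and as near-identical genes they may share reads. RGS2, which shortens G protein signals, went from 5.37 and 4.04 to 281.9 and 249.98 FPKM, while RGS16 fell by 1.73 and the nucleotide receptor P2RY2 by 2.41.

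NF-kB genes mostly rose, subunits and inhibitors among them. Of 33 tested genes 29 rose and 2 fell (median 1.03), and 26 of the 30 expressed in both states rose. NFKB2 and RELB, the pair of the noncanonical arm, rose by 3.65 and 3.62, against 1.12 for NFKB1, 0.63 for REL and 0.48 for RELA. In the inhibitor family, NFKBIA went from 23.4 and 22.2 to 159.6 and 148 FPKM (2.70, SE 0.07), and BCL3, NFKBID and NFKBIB rose by 3.08, 2.51 and 1.56. The ubiquitin-editing enzymes that end the signal, TNFAIP3 and CYLD, rose by 2.68 and 2.21. The kinases that start it moved less, with CHUK at 0.86, IKBKB at 0.44 and IKBKE at −0.78.

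Early response transcription factors were higher after treatment. In the AP-1, ATF and EGR list 24 of 27 tested genes rose and 2 fell (median 2.05), and 16 of the 19 expressed in both states rose (median 1.99). FOS stood at 5.92 and 5.12 FPKM untreated and 124 and 116 treated (4.21), its partner JUN at 3.67 and 3.74 and 52.2 and 47.7 (3.44), and EGR1 at 1.04 and 0.870 and 16.4 and 15.6 (3.12). JUND, another partner of FOS, did not pass the test (0.21, adjusted p = 0.0564), and BATF fell by 0.96. IER3, an early gene linked to survival, had 1.51 and 1.21 and 161 and 144 FPKM. Feedback genes of the same stimuli rose as well. The phosphatases DUSP1 and DUSP4, which switch off MAP kinases, rose by 2.93 and 2.54, NAB2, which restrains EGR factors, by 2.86, and ZFP36, whose protein speeds decay of cytokine mRNA, by 2.70. Kruppel-like factors KLF2, KLF6, KLF10 and KLF4 rose by 3.38, 2.77, 2.44 and 2.33.

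The promoters of IL8, NFKBIA and PPP1R15A are printed because they hold exact short motifs of NF-kB or AP-1, and were chosen after the values were seen. Each is the 250 bases before the start in RefSeq's GRCh38.p14 annotation, 5′ to 3′ on the gene's strand, while the deposited values were made on hg19. Capitals mark GGANTTTCC, an NF-kB pattern, and TGANTCA, the AP-1 pattern, on either strand. Over 27305 RefSeq promoters cut to the same length, 1.47% hold the first and 6.6% the second. IL8 (CXCL8) lies at chr4:73740319-73740568 on the plus strand, NFKBIA at chr14:35404750-35404999 on the minus strand and PPP1R15A at chr19:48872171-48872420 on the plus strand.
IL8: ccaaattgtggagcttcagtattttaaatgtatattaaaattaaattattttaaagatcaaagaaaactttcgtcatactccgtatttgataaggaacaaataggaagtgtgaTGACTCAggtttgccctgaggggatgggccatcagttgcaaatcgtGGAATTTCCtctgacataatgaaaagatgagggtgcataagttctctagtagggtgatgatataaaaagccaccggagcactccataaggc
NFKBIA: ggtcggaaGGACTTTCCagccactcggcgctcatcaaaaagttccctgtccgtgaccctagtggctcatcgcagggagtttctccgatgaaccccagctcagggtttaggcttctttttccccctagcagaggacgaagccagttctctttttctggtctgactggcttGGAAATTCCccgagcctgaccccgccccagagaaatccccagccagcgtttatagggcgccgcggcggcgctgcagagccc
PPP1R15A: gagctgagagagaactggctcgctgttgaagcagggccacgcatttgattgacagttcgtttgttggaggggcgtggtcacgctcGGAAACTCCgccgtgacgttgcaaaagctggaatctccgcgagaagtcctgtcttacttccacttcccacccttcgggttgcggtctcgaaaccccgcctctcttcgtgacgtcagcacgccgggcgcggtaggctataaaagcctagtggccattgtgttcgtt
The IL8 window holds both patterns, 91 and 137 bases before the start, and the NFKBIA window holds the NF-kB pattern at 242 and 81 bases. PPP1R15A, which encodes a phosphatase subunit that restores translation, holds it at 165 bases and rose by 3.92. Promoters were found for 77.3% of the tested genes, and genes that rose were not compared with genes that fell. A match describes these letters and does not show binding.

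**Figure D2:**
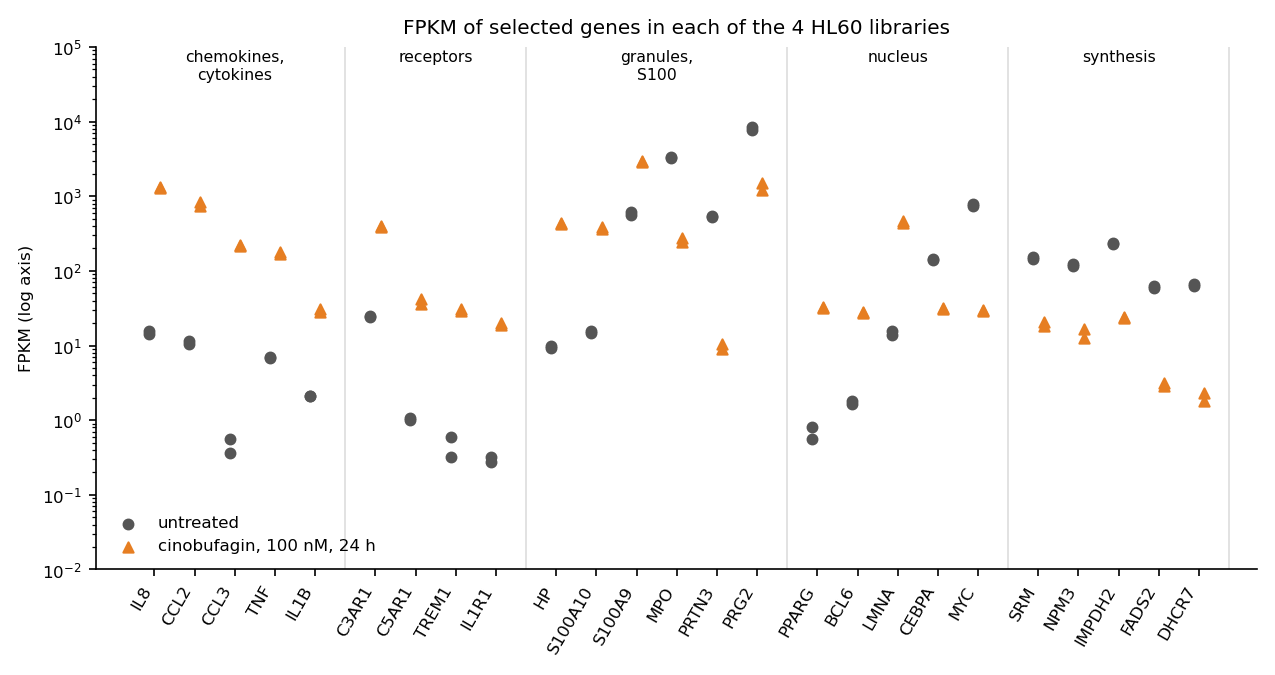
FPKM (log axis) of 25 genes in each HL60 library, untreated as grey circles and treated as orange triangles. For every gene drawn the 2 treated points lie wholly above or wholly below the 2 untreated ones, and IL8 reaches 1330.2 and 1295 FPKM.

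Of 38 tested surface receptors of mature phagocytes 35 rose and 2 fell (median 1.67), and 24 of the 27 expressed in both states rose. CLEC7A, the receptor for fungal beta-glucan, went from 1.34 and 0.681 to 46.1 and 38.8 FPKM (4.45, SE 0.21, limma adjusted p = 3.05e-07). TREM1, which amplifies inflammatory signals, went from 0.587 and 0.320 to 31.3 and 28.7, and CD86, a costimulator of T cells, from 3.88 and 3.70 to 65.3 and 66.7. The IgA receptor FCAR rose by 3.73, the formyl peptide receptor FPR1 by 3.26 and the lipopolysaccharide coreceptor CD14 by 3.42. Toll-like receptors moved unevenly, with TLR8 at 2.30, TLR4 at 1.30, TLR2 at 0.83 and TLR9 at −0.55. CD33, an early myeloid marker, fell by 1.33. CSF1R, the macrophage growth factor receptor, was below the filter, at most 0.201 FPKM, as was CD36.

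Of 21 primary granule genes 17 fell and 3 rose (median −1.63), and of 17 tested genes of specific and gelatinase granules 14 rose and 3 fell (median 1.5), 11 of the 13 expressed in both states among the risers. Myeloperoxidase, MPO, went from 3285 and 3369 to 245 and 274 FPKM, and CTSG, cathepsin G, from 219.9 and 194 to 14.4 and 16.1. Eosinophil genes of the list, EPX (352 and 351 to 17.6 and 26.0 FPKM, −3.98), RNASE3 (−2.54) and PRG2 (−2.57), fell with the neutrophil genes. The risers were CTSC, the protease that activates the granule proteases (0.66), SERPINB1, which inhibits them (0.76), and SRGN, the proteoglycan that packs them (0.28). DEFA3 was not called (−0.58, limma adjusted p = 0.0701).

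Haptoglobin, HP, stored in specific granules, had the largest rise of the second list, from 9.25 and 9.97 to 427 and 441 FPKM (5.36, SE 0.09), with reads that may be shared with HPR. PTX3 (3.76), ARG1 (3.24) and QPCT (2.80) rose with it, and lysozyme, LYZ, went from 677 and 733 to 1029 and 1198 FPKM (0.65). CEACAM6 had the largest fall of the list (−2.62). The defining proteins of that granule did not appear: lactoferrin (LTF), lipocalin 2 (LCN2) and cathelicidin (CAMP) were at most 0.551 FPKM in any library. Of the other untested members MMP8 and TCN1 were the highest, at most 0.957 and 1.54 FPKM. The rise covered part of the specific granule set, without its commonest markers.

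Oxidase subunits and calcium-binding proteins rose. Of the 10 genes of the phagocyte oxidase list 9 rose (median 1.44), among them NCF1 (2.27), whose pseudogene copies share its reads, and the catalytic subunit CYBB at 1.98. The pseudogene copy NCF1C (2.07) is counted among the 9. NCF4 was the exception, at −0.72. Of 17 tested S100 and annexin genes 12 rose and 3 fell (median 1.75). S100A10, the partner of annexin A2, went from 15.7 and 14.9 to 385 and 363 FPKM (4.52), and ANXA2 itself from 0.683 and 0.564 to 11 and 10.4 (2.85). S100A9 went from 622 and 555 to 2967 and 2902 FPKM and its dimer partner S100A8 from 322 and 269.7 to 1405 and 1217. Together the list held 0.329% and 0.314% of the summed FPKM before and 1.58% and 1.48% after.

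Of 38 tested transcription factors of myeloid cells 18 rose and 14 fell (median 0.12), near the shares of all genes. PPARG, a lipid-sensing nuclear receptor of macrophages, went from 0.563 and 0.809 to 32.5 and 32.3 FPKM (4.31, SE 0.09), and the repressor BCL6 from 1.65 and 1.80 to 27.7 and 28.5 (3.42). The retinoic acid receptor gene RARA (2.12), IRF2 (2.18), STAT3 (1.55), CEBPB (1.11) and SPI1, which encodes PU.1 (0.74), also rose. CEBPA, which commits progenitors to granulocytes, went from 144 and 139 to 30.7 and 31.7 FPKM (−2.15), and MYB, GFI1 and CEBPE fell by 1.21, 1.11 and 0.57. Of phagocyte kinases, LYN rose from 13.2 and 14.0 to 122 and 123 FPKM (3.08) while FES fell from 59.0 and 57.3 to 7.61 and 8.35 (−2.72).

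One structural gene stood apart. LMNA, which encodes the nuclear lamins A and C that stiffen the nucleus, went from 13.7 and 15.5 to 442 and 463 FPKM (4.86, SE 0.07, limma adjusted p = 3.77e-09), from rank 4474 to rank 161. The other lamins moved little, with LMNB1 at −0.10 (adjusted p = 0.15) and LMNB2 at −0.19. Of the 45 genes of its list, which covers actin, lamina and septins, 25 rose and 7 fell (median 0.31). Vimentin, VIM, was next (1.87). Actin itself, ACTB, was not called (0.18, adjusted p = 0.134). Of 31 adhesion and tetraspanin genes 19 rose and 10 fell, with CD53 at 2.63, CD44 at 1.88 and the integrin ITGAX at 1.81, against TSPAN32 at −3.27 and ITGA4 at −1.54.

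**Figure D3:**
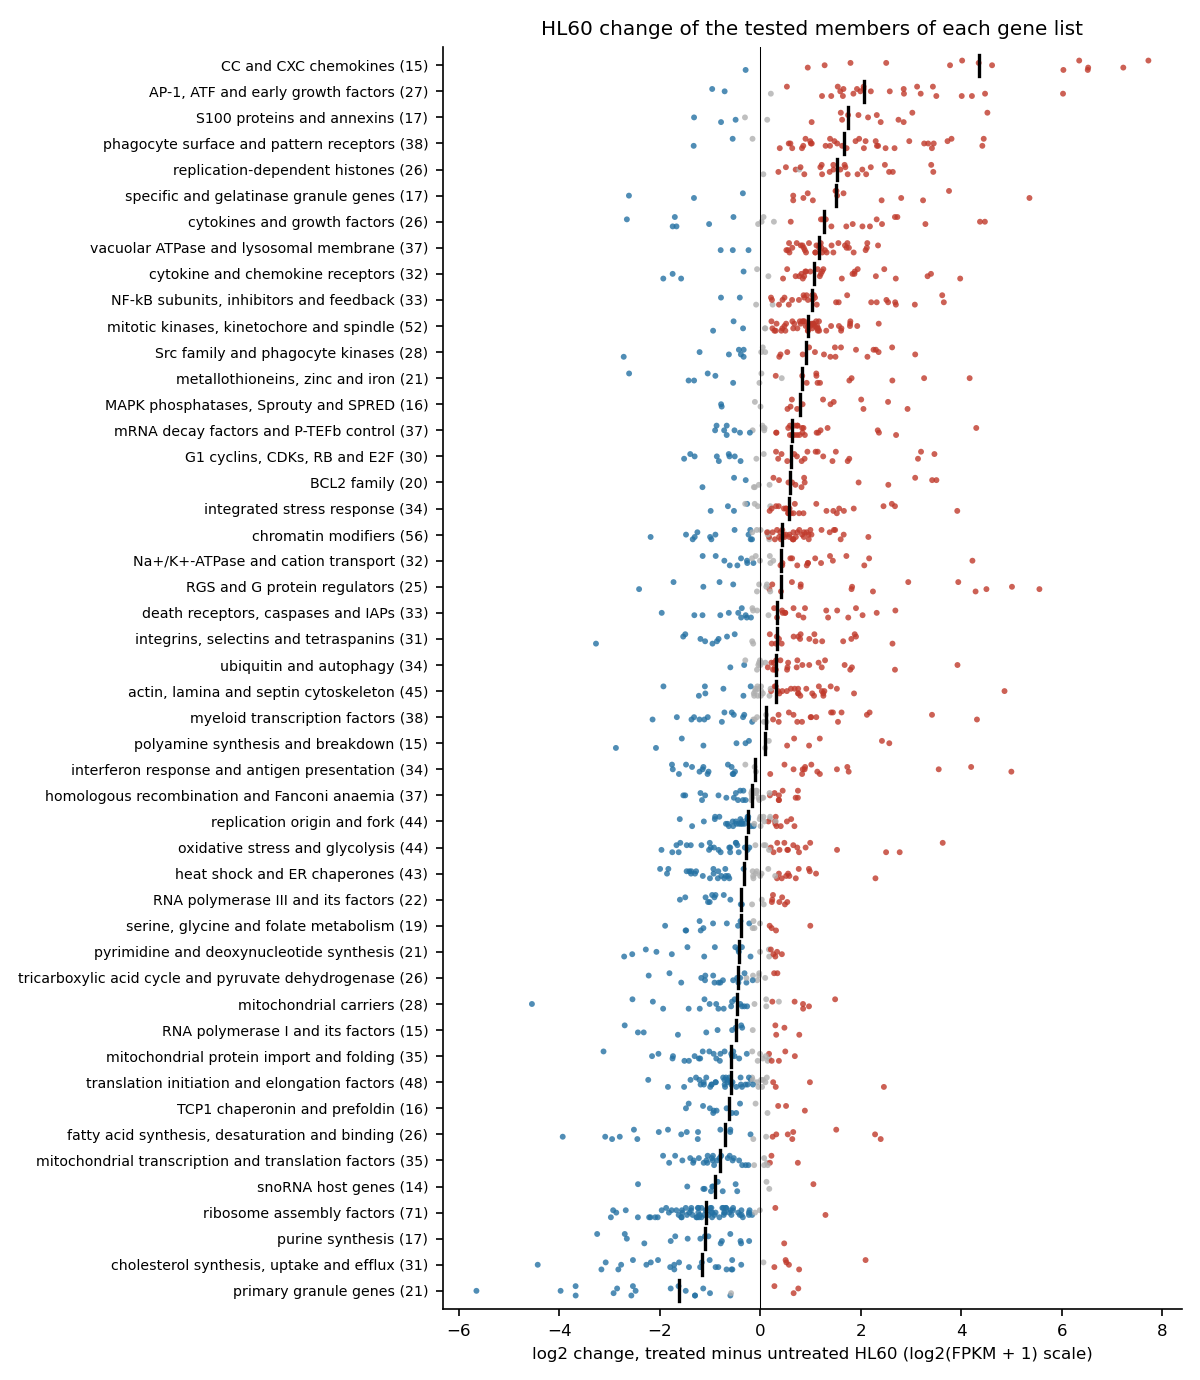
Change of each tested member (1 dot, log2(FPKM + 1), treated minus untreated HL60) of the lists with at least 14 tested members, ordered by the list median (black bar), with the number of tested members in brackets. Red dots rose, blue dots fell and grey dots were not called. Chemokines, near-identical copies among them, lie at the top with a median of 4.35 and primary granule genes at the bottom with −1.63.

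Genes that build ribosomes fell almost without exception. MYC itself went from 786 and 749 to 30.3 and 29.2 FPKM (−4.64, SE 0.05). Of 71 ribosome assembly factors 67 fell and 2 rose (median −1.09). The histone chaperone NPM3 went from 124 and 115 to 12.4 and 16.5 FPKM (−2.98), WDR3, of the small-subunit processome, from 37.4 and 35.5 to 3.65 and 4.18 (−2.93), and nucleolin, NCL, from 597 and 586 to 201 and 199 (−1.56). NOP10, a small protein of the RNPs that modify rRNA, rose by 1.30, while its partners NHP2, DKC1 and GAR1 fell by 2.04, 1.24 and 0.44. IMP3 was the other that rose (0.30), a call lost under 5 settings.

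RNA polymerase I, which transcribes rRNA, fell in 10 of 15 tested genes and rose in 4 (median −0.49). POLR1E, CD3EAP and POLR1B fell by 2.70, 2.44 and 2.32, and the initiation factor gene RRN3 rose by 0.48. Of 22 genes of RNA polymerase III, which makes tRNA and 5S rRNA, 12 fell and 7 rose (median −0.38). Of 14 tested snoRNA host genes 11 fell and 1 rose (median −0.89), and SNHG9 was the riser (1.06).

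Of 48 translation factors 35 fell and 4 rose (median −0.58). EIF2B3, of the exchange factor for eIF2, fell by 2.23, EIF3E by 1.52 and the elongation factor EEF2 by 1.28. EEF1B2 and EEF1G fell by 0.70 and 0.66, and under quantile normalization their changes were 0.06 and 0.01 and not called. EIF1, which helps choose the start codon, moved the other way, from 268 and 279 to 1470.1 and 1549 FPKM (2.46, SE 0.06), as did EIF4G2, which serves cap-independent initiation (0.99). Of 16 subunits and helpers of the TCP1 chaperonin 11 fell and 3 rose, with CCT3 at −1.48 and PFDN5 at 0.89.

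Nucleotide synthesis genes mostly fell. Of 17 tested purine genes 16 fell and 1 rose (median −1.10), and of 21 pyrimidine and deoxynucleotide genes 13 fell and 5 rose (median −0.43). IMPDH2, the first committed step to GTP, went from 231 and 238 to 23.5 and 24.0 FPKM. PFAS (−2.70), ATIC (−2.66) and PAICS (−2.31), of the same pathway to IMP, fell too, and AMPD2, which deaminates AMP, rose by 0.48. In the pyrimidine list CAD, NME1 and DHODH fell by 2.71, 2.55 and 1.76, while TYMS, thymidylate synthase, did not move beyond its spread (−0.01, SE 0.06, adjusted p = 0.942). The ribonucleotide reductase gene RRM2 rose by 0.30.

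The E-box CACGTG, the sequence that MYC-MAX dimers bind, is present in 6.49% of the same RefSeq promoters. The promoters of a pair of genes that hold it are shown, of SRM, spermidine synthase, at chr1:11060019-11060268 on the minus strand, and of ATIC at chr2:215311809-215312058 on the plus strand. Capitals mark the E-box, 199 bases before the start of SRM and 46 before that of ATIC, and both genes were chosen after their values were seen.
SRM: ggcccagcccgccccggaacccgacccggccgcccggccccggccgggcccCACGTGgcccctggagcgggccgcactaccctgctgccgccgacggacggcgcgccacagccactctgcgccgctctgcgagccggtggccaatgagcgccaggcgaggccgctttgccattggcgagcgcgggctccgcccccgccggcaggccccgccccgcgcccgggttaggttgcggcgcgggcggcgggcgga
ATIC: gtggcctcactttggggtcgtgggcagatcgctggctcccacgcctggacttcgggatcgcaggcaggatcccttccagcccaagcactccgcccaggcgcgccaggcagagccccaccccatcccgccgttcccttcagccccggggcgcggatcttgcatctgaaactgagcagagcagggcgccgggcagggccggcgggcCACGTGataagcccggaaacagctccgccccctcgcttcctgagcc
SRM went from 145 and 153 to 18.4 and 20.6 FPKM (−2.88, SE 0.08) and ATIC from 81.7 and 85.0 to 12.1 and 12.6 (−2.66, SE 0.05).

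Mitochondrial genes fell in several classes. Of 35 import and folding genes 23 fell and 5 rose (median −0.58), led by the mitochondrial HSP90 gene TRAP1, which went from 86.9 and 87.8 to 9.23 and 9.06 FPKM (−3.12). The chaperonin pair HSPD1 and HSPE1, which share a promoter region, fell by 1.75 and 1.74. Of 35 mitochondrial transcription and translation factors 27 fell and 3 rose (median −0.81). The tricarboxylic acid cycle list had 18 falls and 2 rises among 26 (median −0.45), with IDH1, which makes NADPH in the cytosol, at −2.22 and IDH2 at −1.81. Of 28 carriers of the inner membrane 18 fell and 6 rose, and UCP2 went from 59.97 and 61.84 to 1.66 and 1.64 FPKM.

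Of 31 tested cholesterol genes 24 fell and 6 rose (median −1.16), and of 26 fatty acid genes 16 fell and 8 rose (median −0.70). FADS2, a desaturase of polyunsaturated fatty acids, went from 58.6 and 61.8 to 2.85 and 3.16 FPKM (−3.93, SE 0.08, limma adjusted p = 5.96e-09), and FADS1, FASN and SCD fell by 2.95, 3.09 and 2.52. INSIG1, a feedback gene of the sterol sensor, fell with them (−2.80). The cholesterol exporter ABCA1 (2.10), the lipid droplet coat gene PLIN2 (1.51), the acyl-CoA synthetase ACSL1 (25.9 and 28.1 to 144 and 149 FPKM, 2.40) and LPIN2 (2.28) rose. The cholesterol synthesis enzymes HMGCS1 and DHCR7 fell by 3.16 and 4.43.

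Polyamine and iron genes moved in both directions. ODC1 and SRM, which make polyamines, fell by 2.08 and 2.88, AMD1, which serves the same synthesis, rose by 1.18, and SAT1 and SMOX, which break them down, rose by 2.57 and 2.42. SAT1 went from 47.1 and 40.2 to 278 and 248 FPKM. The ferritin heavy chain FTH1, which stores iron, went from 192 and 201 to 1862 and 1925 FPKM (3.26), and the light chain FTL from 3505 and 3592 to 4348 and 4432 (0.31, SE 0.09), a call lost in 3 of the 4 fits that left out an HL60 library (adjusted p = 0.0735, 0.0507 and 0.0512). The transferrin receptor TFRC, which takes iron up, went from 259 and 305 to 43.7 and 46.7 FPKM (−2.61). HMOX1, which frees iron from haem, rose by 4.17, and the exporter SLC40A1 fell by 1.32. Metallothioneins, which bind zinc and copper, rose at MT1F (2.63), MT1E (1.19), MT2A (1.14) and MT1X (1.11), near-identical genes whose reads may be shared, with the zinc exporter SLC30A1 (1.82).

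Sugar metabolism genes moved in both directions. The high-affinity glucose transporter SLC2A3 rose by 3.63 and SLC2A1 fell by 0.46. The first enzyme HK1 went from 1.59 and 1.71 to 16.8 and 17.5 FPKM (2.77). Phosphofructokinase fell in all 3 of its genes, PFKP, PFKM and PFKL, by 1.97, 1.75 and 1.01, as did GPI (by 1.67). Enolase 2, ENO2, rose by 2.5 while ENO1 fell by 0.48, and GAPDH was not called (0.17, adjusted p = 0.0633). In the joint list of glycolysis and oxidative stress 16 of 44 rose and 24 fell, with the antioxidant genes CAT, PRDX2 and SOD1 at −1.63, −1.59 and −1.38.

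**Figure D4:**
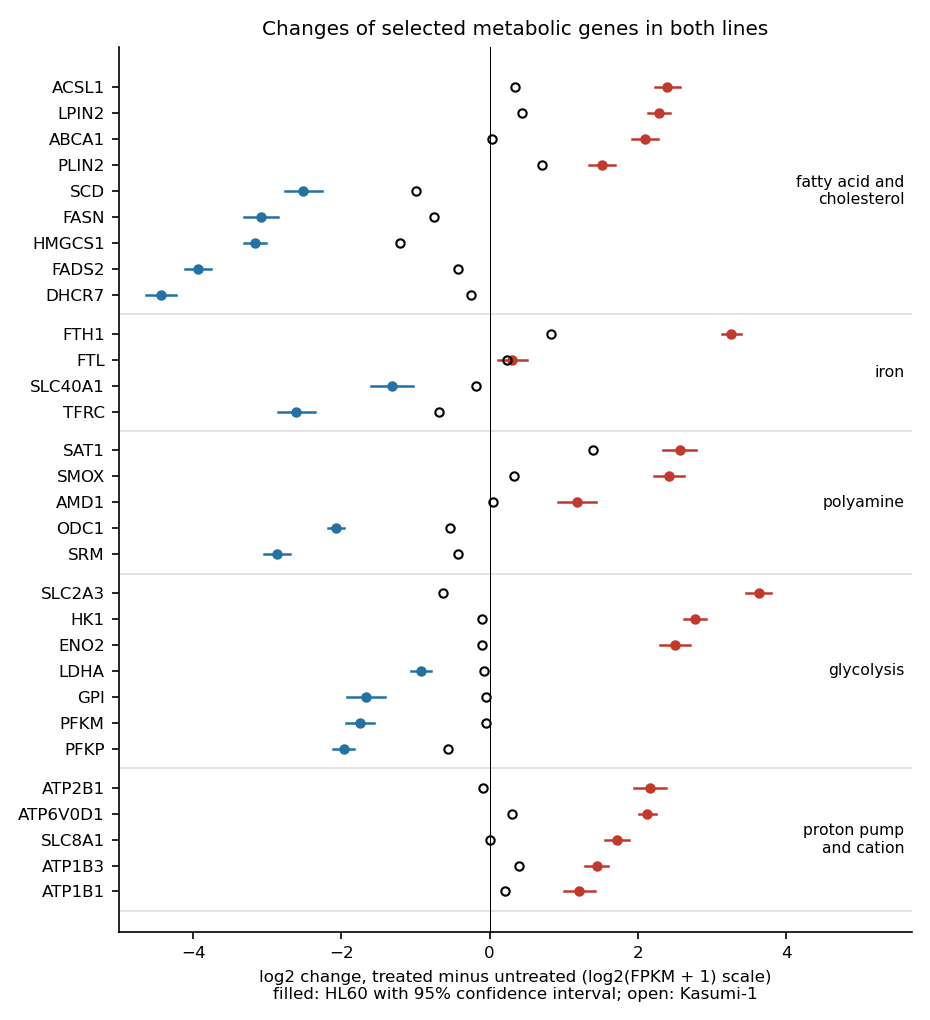
Log2 change (x axis, treated minus untreated, log2(FPKM + 1)) of selected lipid, iron, polyamine, glycolysis and ion transport genes in HL60 (filled, with the 95% confidence interval of the limma fit) and in Kasumi-1 (open, without an interval). The first 4 groups were picked to show opposite directions within a pathway in HL60, such as ACSL1 at 2.40 and FADS2 at −3.93, and the Kasumi-1 points lie nearer 0 than the HL60 points for every gene drawn.

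Beta subunits of the pump that cinobufagin binds rose, ATP1B1 by 1.21 and ATP1B3 by 1.44. Exporters of calcium rose too, with the plasma membrane pumps ATP2B1 and ATP2B4 at 2.17 and 1.39 and the sodium-calcium exchanger SLC8A1 at 1.71 (0.182 and 0.214 to 2.93 and 2.93 FPKM). SGK1, a kinase that raises sodium transport, went from 2.18 and 2.59 to 62.4 and 61.8 FPKM. Of the 32 tested genes of this list 17 rose and 9 fell (median 0.42).

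Lysosomal genes mostly rose. Of 37 tested genes of the proton pump and the lysosomal membrane and lumen 34 rose and 3 fell (median 1.17). Subunits of the pump rose from the membrane sector (ATP6V0D1, 2.13) to the catalytic sector (ATP6V1B2, 2.12), and ATP6V0A2 fell by 0.79. The channel MCOLN1 (2.10) and the transcription factors TFE3 (2.34) and TFEB (1.17), which switch on lysosomal genes, rose as well. In the autophagy and ubiquitin list 24 of 34 rose and 2 fell (median 0.31), led by GABARAPL1, a protein of the autophagosome membrane, from 4.70 and 5.12 to 90.1 and 87.3 FPKM (3.93). The initiation genes ATG5 and ATG13 were not called (−0.01 and −0.02).

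Of 52 mitotic genes 47 rose and 3 fell (median 0.95), with CCNB1 at 1.93, AURKA at 1.79 and CENPE at 1.79. Of 44 replication genes 26 fell and 9 rose, by small amounts (median −0.25), with POLD2 at −1.60 and PCNA at 0.61. Of genes of the G1 phase, the inhibitors CDKN2D, 8.88 and 8.39 to 90.7 and 84.3 FPKM (3.20), and CDKN1A, 0.617 and 0.733 to 17.5 and 17.5 (3.47), rose, as did the cyclin CCND3 (3.14). CDK6 and SKP2, which push cells towards S phase, fell by 1.52 and 1.40. Of 26 tested replication-dependent histone genes 24 rose and 0 fell, 15 of the 17 expressed in both states among the risers, and near-identical copies among them share reads. The libraries were poly(A)-selected, so these values cover only the polyadenylated part of histone mRNA. The list summed to 70.4 and 72.9 FPKM untreated and 516 and 515 treated, and total histone mRNA was not measured. Of 37 repair genes of homologous recombination 14 fell and 9 rose (median −0.16), and BRCA1 and ATM were not called.

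Death and stress genes rose at selected members. Of the BCL2 family 13 of 20 rose and 3 fell (median 0.60). PMAIP1, which encodes NOXA, went from 12 and 13.2 to 141 and 148 FPKM (3.42), and its binding target MCL1 from 28.3 and 31.9 to 251 and 273 (3.08). The killing proteins BAX and BAK1 stood at −0.11 (adjusted p = 0.144) and 0.70. Among 33 death receptor and caspase genes 18 rose and 11 fell, with the TRAIL receptor TNFRSF10B at 2.69, the caspase-8 inhibitor CFLAR at 2.04 and the pore-forming GSDMD at −1.96. In the integrated stress response list 26 of 34 rose and 4 fell (median 0.57). Its central factors ATF4 and DDIT3 rose by 0.56 and 0.69, close to that median. Of 43 heat shock and ER chaperones 22 fell and 12 rose (median −0.33), and HSPA5, the sensor-bound chaperone of the ER, was at 169.7 and 170.0 and 168 and 171 FPKM (−0.00, SE 0.05, adjusted p = 0.963).

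The interferon and antigen presentation list had 16 rises and 15 falls among 34 (median −0.10), near the shares of all genes, and 13 and 14 among the 30 expressed in both states. GBP2, the cytokine signal inhibitor SOCS3 and the lysosomal reductase IFI30 rose by 5.0, 4.20 and 3.55. Class I HLA genes rose, HLA-B by 1.13, HLA-C by 0.84 and HLA-E by 1.73, with reads that related HLA genes may share. The immunoproteasome subunits PSMB9, PSMB8 and PSMB10 fell by 1.76, 1.13 and 1.05, and IFITM2, IFITM1 and IFITM3 by 1.62, 1.48 and 1.03. The classical interferon-induced genes IFIT1 and MX1 were at most 0.27 FPKM in any HL60 library.

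Some abundant genes showed no change beyond their spread. Of genes with a mean of at least 50 FPKM in both groups, the 8 with the smallest change included HSPA5, HDGF (221 and 220.3 and 217 and 225 FPKM), TYMS, PQBP1, SEC11C (99.4 and 96.6 and 97.7 and 98.2) and SNF8. In HSPA5, HDGF, TYMS, PQBP1, SEC11C and SNF8 the untreated and treated values overlapped.

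The last comparison asked which of these changes were shared by Kasumi-1, in which MYC fell by 0.62. The change differed between the lines in 7660 genes (69.1% of 11084, limma interaction), 3971 (35.8%) with a higher value in HL60 and 3689 (33.3%) with a lower one. In Kasumi-1, 1229 of these genes rose (11.1%) and 1865 fell (16.8%). Of the 1432 genes that rose at least 2-fold in HL60, 419 rose in Kasumi-1, 55 fell and 958 were not called, and their median change was 0.13 against 1.43 in HL60. Of the 1728 that fell at least 2-fold, 719 fell there, 84 rose and 925 were not called (median −0.23 against −1.43). The interaction was called for 1411 and 1713 of them. These genes were chosen by expression and change in HL60, which by itself favours a smaller Kasumi-1 change and an interaction call. The filter used HL60 libraries alone, so genes not expressed in Kasumi-1 could stay in. Some, such as HCAR2 and PPARG, had a Kasumi-1 change of exactly 0, as genes at 0 FPKM in every Kasumi-1 library would. For a gene not expressed in Kasumi-1, an interaction call does not compare 2 responses. Such genes were not counted. Because the lines were grown in different serum shares, serum and line cannot be told apart.

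By list, 61 of 71 ribosome assembly factors and 17 of 31 cholesterol genes fell in Kasumi-1, with 0 and 4 rises. Of 37 lysosomal genes 19 rose there and 1 fell, and of 52 mitotic genes 21 rose and 0 fell. Primary granule genes, which mostly fell in HL60, had 10 rises and 1 fall among 21 in Kasumi-1. Of 38 phagocyte receptors 6 rose there and 5 fell, with a Kasumi-1 median change of 0. Single genes show how far the lines differed. CCL2 changed by 0.02 in Kasumi-1 (interaction 6.02, adjusted p = 7.58e-08), LMNA by 1.25 (3.61, adjusted p = 1.38e-07) and HP by 0.08 (5.28, adjusted p = 7.58e-08). IL8 rose in Kasumi-1 too, by 1.34 (interaction 5.01, adjusted p = 1.64e-07). Of falls, FADS2 changed by −0.43 in Kasumi-1 (interaction −3.50, adjusted p = 1.63e-07) and HMGCS1 by −1.21 (−1.95, adjusted p = 1.14e-06). The granule protease gene PRTN3 changed by 0.49 in Kasumi-1 against −5.65 in HL60 (interaction −6.14, adjusted p = 7.58e-08).

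**Figure D5:**
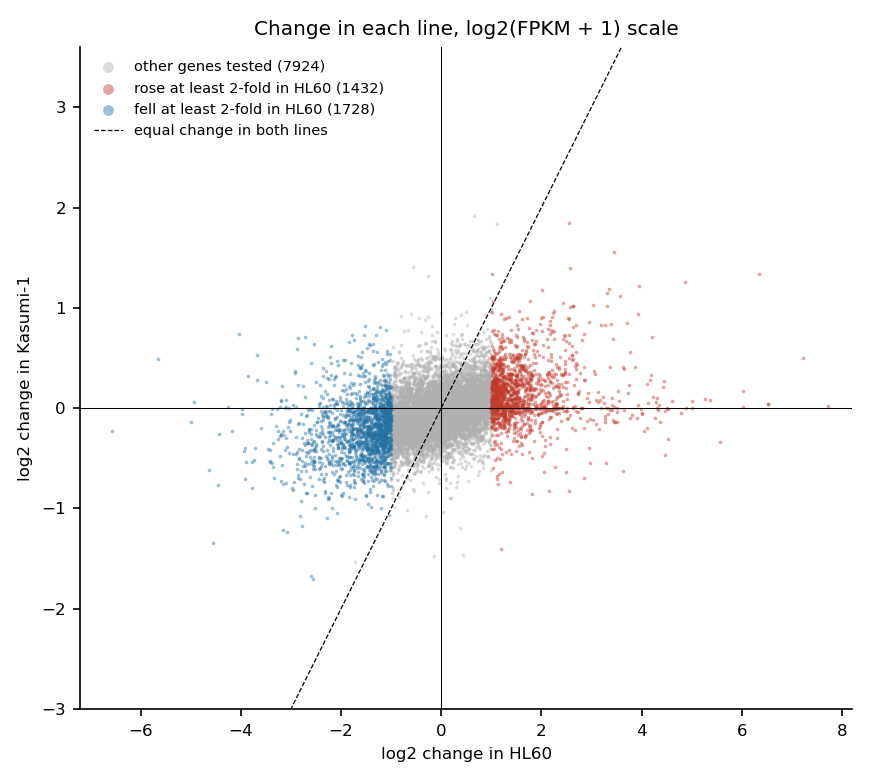
Log2 change in Kasumi-1 (y axis) against that in HL60 (x axis) for the 11084 genes, with the genes that rose at least 2-fold in HL60 in red (1432) and those that fell at least 2-fold in blue (1728). The axes differ in scale, the dashed line marks equal change, and most coloured points lie between that line and the horizontal 0 line, with Kasumi-1 medians of 0.13 and −0.23. The coloured genes were chosen by their HL60 change, which favours this position.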

How the data were processed

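Poly(A)-selected, strand-keeping RNA libraries (TruSeq Stranded mRNA, per the labels' protocols) gave 1 table, in which the authors deposited FPKM values, made with bcl2fastq 2.20.0, HISAT2 2.1.0 and Cufflinks 2.2.1 on hg19, per the submitters' processing notes. No source used here names the annotation, the filters or the strand setting of the quantification, so overlapping and antisense genes cannot be told apart. Absolute depth is unknown and no counting interval is given.

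Values were taken as log2(FPKM + 1) and fitted with limma 3.58.1 in R 4.3.3, with an intensity trend and 1 mean for each of the 4 groups over all 8 libraries (4 residual degrees of freedom). Adjusted p below 0.05 is a call. Permuting 2 against 2 libraries cannot reach a two-sided p below 0.33. The fit was run on simulated data with independent noise of equal spread for every gene and few changed genes. That setting differs from these data, so the run checked the code and not the calls.

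Members and the 56 textbook gene lists were chosen with earlier results of these data known. Lists are described by counts and medians, with no test. Named genes are the largest changes overall (15 per direction) and in each list (3 per direction), abundant list members (at least 100 FPKM), uncalled list members with the smallest change, the largest differences in FPKM and between lines, and unchanged abundant genes. Other genes were added after their values were seen, namely the gained and lost genes, members of pathways beyond the ranks, and symbol families. Alternatives were another pseudocount (0.1), filter, scaling, variance model and set of rows, a replicate block, and each library left out. RefSeq symbols matched 94.4% of genes. Some genes are not reported here.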

Additional observations from a re-analysis of the deposited data

Results flagged for a closer look

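The change differed between HL60 and Kasumi-1 in 7660 of 11084 genes by the limma interaction, and the largest differences follow as HL60 minus Kasumi-1 on the log2 scale. MYC stood at −4.02. Above 0 were the chemokine genes CCL4 at 7.71, CCL3 at 6.73, CCL4L2 and CCL4L1 at 6.48 each and CCL2 at 6.02, of which the CCL3 and CCL4 copies share reads. RGS2 followed at 5.89, IER3 at 5.85, haptoglobin (HP) at 5.28, EMP1 at 5.17 and HCAR3 at 5.01. The Kasumi-1 change of HCAR3 was exactly 0. Below 0 were IGLL1 at −6.34, proteinase 3 (PRTN3) at −6.14, MZB1 at −4.99, galanin (GAL) at −4.86, DYSFIP1 at −4.78 and the semaphorin receptor PLXND1 at −4.27. Cathepsin G (CTSG) stood at −4.21, and DHCR7, the last step of cholesterol synthesis, and adenosine deaminase (ADA) at −4.17 each.

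Rows of short RNAs were outside the comparison, since poly(A) selection and FPKM scaling suit them poorly. Leaving out 2 rows with a repeated symbol, 172 of the other 1835 reached 1 FPKM in 2 HL60 libraries. In 46 of them both treated libraries were at least 1 FPKM and more than 2 times both untreated ones, and 28 were lower by the same rule. The 46 include 17 RN5S rows, which differ in value but may share reads, and 9 RNU1 rows that hold the same values. SNORD3B-2 and SNORD3D also hold the same values, so the 46 rows have 37 distinct sets of values. RN7SK, the RNA that holds P-TEFb inactive, stood at 12.7 and 19.4 FPKM untreated and at 129 and 102 treated.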

How the results depend on the processing

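Across 17 alternative settings the counts of calls in HL60 stayed within 1.5 times their main values. Rises lay between 3682 (filter at FPKM of at least 5) and 4721, falls between 3341 (the same filter) and 4820 (no filter), and leaving out each library gave 4057 to 4471 rises and 4098 to 4497 falls. The MYC log2 change in HL60 lay between −4.79 and −4.61. The median change of all genes, −0.0027, became 0.0603 with the filter at 5 FPKM, 0.0188 after median ratio scaling and 0.0233 after quantile normalization. Under quantile normalization the EEF1B2 log2 change in HL60 reversed to 0.0604 and the EEF1G log2 change in HL60 to 0.00926, neither called, and the cause was not tested. Of 510 named genes that were called, 473 kept sign and call in every setting that tested them, and 25 of 112 list counts moved by over 1.5 times in at least 1 setting. Among these, rises of cytokines went from 16 to 9 and of histone genes from 24 to 12 with the filter at 5 FPKM, which tests fewer genes. Among genes named above, TPT1, SNHG9, FTL and IMP3 lost their call without the filter, and S100A8 with a pseudocount of 0.1. Outside the naming rule, CCL23 lost its call with that pseudocount and under quantile normalization, IL27RA under quantile normalization (adjusted p = 0.0507), and DDIT3 without the filter and without treated HL60 replicate 1.

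With the replicate number as a block, 4721 genes rose and 4730 fell. Deviations of same-numbered libraries from their group means correlated at 0.287 to 0.496 over the 6 pairs of groups (0.352 within HL60). The labels do not say what a number marks and each group holds 2 numbers, so the block was not taken as the design. The values hold no counts, so the error that depth sets on low FPKM values could not be given.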

Other observations

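Gene families by symbol, picked after the values were seen, add to the lists. Of 25 tested kinesin genes (symbols starting with KIF) 21 rose and 2 fell, with a median of 0.90, and of 61 RAB genes, which encode small GTPases of vesicle traffic, 42 rose and 15 fell (median 0.64). Of 47 proteasome genes (PSM) 12 rose and 24 fell (median −0.20). Zinc finger genes (ZNF), the largest family, had 120 rises and 160 falls among 402 and a median of −0.09. Over all genes 40% rose and 40.4% fell.

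Of 56 tested chromatin modifiers 37 rose and 13 fell (median 0.44). KDM6B, a demethylase of histone H3, rose by 2.15, from 3.72 and 3.66 to 19.9 and 19.7 FPKM, and the deacetylase HDAC5 by 1.66. The arginine methyltransferases PRMT3, PRMT5 and PRMT1 fell by 2.18, 1.48 and 0.97. Among factors that control transcript elongation and decay 24 of 37 rose and 8 fell (median 0.63). CDK9, the kinase of P-TEFb, rose by 0.83, its inhibitor HEXIM1 by 0.31, and BTG2, which recruits deadenylase to mRNA, went from 3.61 and 3.36 to 87.4 and 87.0 FPKM.

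Of the remaining lists, MAPK phosphatases and Sprouty genes had 12 rises and 2 falls among 16 tested (median 0.79; 9 and 2 of the 13 expressed in both states), G protein regulators 15 and 5 among 25 (0.41; 11 and 3 of 19), Kruppel-like factors 8 and 1 among 10 (1.02) and phagocyte kinases 18 and 7 among 28 (0.91). G1 regulators had 19 rises and 9 falls among 30 (0.61; 15 and 8 of 25), and metal genes 12 and 6 among 21 (0.83). Serine and folate genes had 4 rises and 11 falls among 19 (−0.39), and polyamine genes 6 and 7 among 15 (0.10). In the MYC, MAX and MXD network 8 of 10 rose and 2 fell (0.46). Of 8 tested genes that tell the lines apart 3 rose and 5 fell (−2.09).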
